A study of Drosophila melanogaster with 8 samples.

Results

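The Cpr genes of Drosophila melanogaster encode the largest family of chitin-binding cuticle proteins, and 60 of them could be followed between larval and adult RNA on 8 spotted two-colour arrays. They were taken as all genes whose symbol in the platform's probe-to-gene table starts with Cpr followed by a number, over 71 spots that were each paired with 1 gene, out of 10658 genes in all. The gene Cpr itself, which encodes a P450 reductase, was not among them. The current RefSeq table names 70 such genes, and the other 10 (Cpr30F, Cpr49Ab, Cpr49Ag, Cpr50Cb, Cpr60D, Cpr65Au, Cpr65Aw, Cpr65Ax1, Cpr65Ax2 and Cpr65Ay) had no spot paired with them here.

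Each array carried RNA of larvae (stage mix) in one channel and RNA of adults (stage mix) in the other, both of the wild-type strain Canton S, with no mutation or treatment. Larvae were in channel 1 on replicates 1, 3, 6 and 8, and adults were in channel 1 on replicates 2, 4, 5 and 7. Per the labels, the RNA came from portions of one homogenate that were processed apart, to assess technical error, so the 8 arrays are technical replicates and every p-value measures technical spread, not the spread between animals. No source used here lists the larval and adult stages in the mixes. The labels describe polyA selection on oligo-dT cellulose. In RNA of whole animals, fewer cuticle-forming cells and less RNA per cell cannot be told apart.

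An insect builds a new cuticle from the epidermis before each moult. It is a layered material of chitin fibres and proteins, and most Cpr proteins hold the Rebers and Riddiford consensus, a stretch that binds chitin. Different family members are made at different moults and in different body regions, under pulses of the moulting hormone ecdysone and of nuclear receptors that answer to it, so that soft larval and hard pupal or adult cuticles differ in composition. A Cpr symbol holds the cytological band of the polytene chromosome in which the gene lies, and a last letter that separates genes of the same band, many of which are tandem copies.

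The measure is the turned log2 ratio: the deposited log2 ratio of the channels, centred on each array on the median of all spots paired with a gene, with the sign reversed where adults were in channel 1. The sources used here do not say which channel was the numerator. If it was channel 1, a positive ratio means more larval RNA; if it was channel 2, it means more adult RNA. Genes are therefore described by the side of 0 they lie on, and no stage is assigned to either side. Errors are SDs over the 8 arrays (n = 8), and a gene past the threshold had a limma adjusted p below 0.05, adjusted over all 10658 genes. A fold value is 2 raised to the size of the mean log2 ratio.

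The Cpr family was spread widely to both sides. Of the 60 genes, 34 (56.7%) passed the threshold on the positive side, against a background of 29.2% of all genes, and 20 (33.3%) on the negative side, against 27.8% of all genes. The other 6 were not past it, and over either side together the background was 57.0% of all genes. Differences of at least 2-fold stood out from the background on both sides, with 25 Cpr genes (41.7%) on the positive side against 6.28% of all genes, and 8 (13.3%) on the negative side against 3.11%. At least 8-fold on the positive side were 9 Cpr genes (15%) and 0.300% of all genes. The median ratio was 0.58 for the Cpr genes and -0.01 for all genes, and the median size of a ratio was 1.15 and 0.31. Centring matters for this split. With values as deposited, the median over all genes shifts to -0.45. Then 27 of the 60 Cpr genes were positive and 23 negative, against 1040 and 6059 of all 10658 genes. Centred on all spots, with that median at -0.15, 31 and 20 of the 60 were called, against 2059 and 3707 of 10658. Under both centrings the negative share of the Cpr genes was below that of all genes. The positive share stayed above it.

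**Figure D1:**
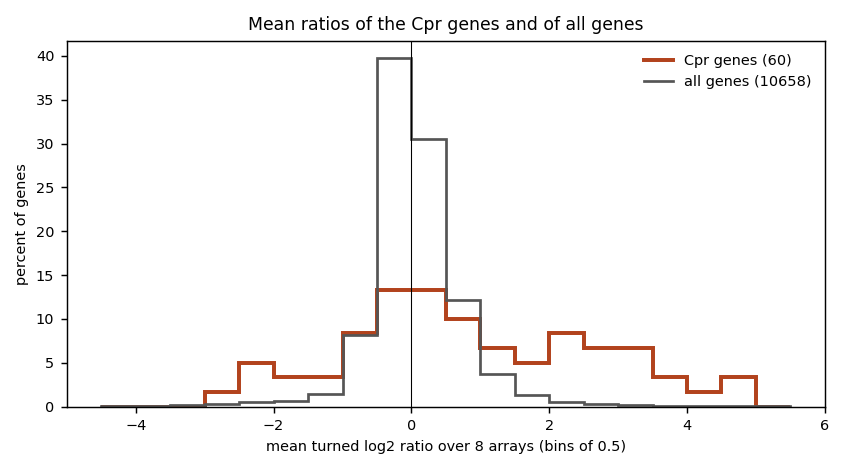
Percent of genes (vertical axis) in bins of 0.5 of the mean turned log2 ratio over 8 arrays (horizontal axis), for the 60 Cpr genes and for all 10658 genes. The Cpr genes reach from -2.59 to 4.93 with a median of 0.58, while most genes lie close to 0.

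Ratios had a single sign on all 8 arrays for 31 of the 60 Cpr genes on the positive side, against 22.3% of all genes. On the negative side this held for 16 of the 60, against 19.3%. The Cpr genes, 60 of the 10658 genes in the fit, made up 16 of the 100 genes with the highest mean ratio and 4 of the 100 with the lowest. Cpr72Ea and Cpr97Eb ranked 2 and 3 among all genes from the top.

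**Figure D2:**
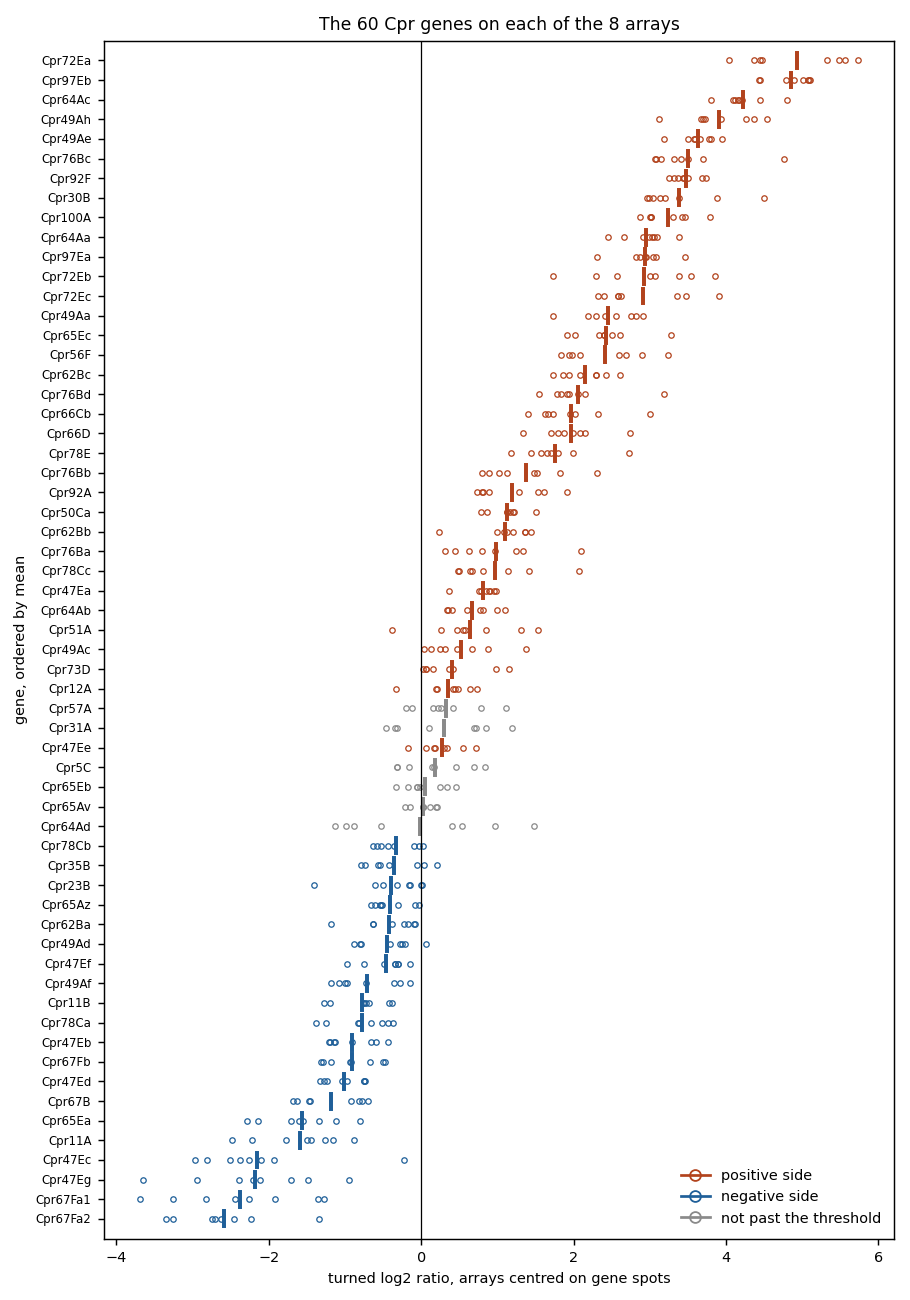
Turned log2 ratio (horizontal axis) of each of the 60 Cpr genes (rows, ordered by mean) on each of the 8 arrays (open circles) with the mean (vertical bar), coloured by side. The genes at both ends keep a single sign on all arrays, and Cpr64Ad, near the middle, runs from -1.12 to 1.48.

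On the positive side, the 6 largest means belonged to genes of 5 bands. Cpr72Ea had a lowest value of 4.04, a median of 4.90 and a highest of 5.74 over the 8 arrays, and its mean of 4.93 ± 0.66 is a 30.5-fold difference (limma adjusted p = 8.42e-09). Cpr97Eb ran from 4.44 over a median of 4.95 to 5.10, with a mean of 4.85 ± 0.28 or 28.9-fold (limma adjusted p = 2.03e-10). On every array both genes were thus more than 4 log2 units from 0.

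Cpr64Ac ran from 3.80 over a median of 4.16 to 4.80, with a mean of 4.22 ± 0.29, or 18.7-fold. Cpr49Ah ran from 3.12 over 3.83 to 4.54 (mean 3.91 ± 0.46) and Cpr49Ae from 3.18 over 3.62 to 3.95 (mean 3.63 ± 0.23). Cpr76Bc ran from 3.07 over 3.37 to 4.76 (mean 3.50 ± 0.55), and its highest value came from replicate 3. In all 6 genes the lowest array lay above 3, so that no array came near the negative genes.

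The largest ratios on the negative side were smaller in size than those on the positive side. Cpr67Fa2 ran from -3.35 over a median of -2.67 to -1.34, with a mean of -2.59 ± 0.63 or 6.02-fold (limma adjusted p = 9.23e-07). Cpr67Fa1 ran from -3.69 over -2.35 to -1.27, with a mean of -2.38 ± 0.86. The names mark these as copies of the same locus, and no source used here says whether a spot binds only one of them, so the value of either gene is uncertain.

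Cpr47Eg ran from -3.65 over -2.16 to -0.94 (mean -2.18 ± 0.85) and Cpr47Ec from -2.97 over -2.32 to -0.23 (mean -2.15 ± 0.85). Of these, Cpr47Eg was dim, at brightness percentile 6.53 of all genes. Cpr11A ran from -2.49 over -1.47 to -0.88 (mean -1.59 ± 0.54), and Cpr65Ea from -2.28 over -1.57 to -0.81 (mean -1.57 ± 0.49). These 6 genes were negative on every array, with limma adjusted p values up to 2.40e-05 (Cpr47Ec).

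Grouped by the band in the name, the 60 genes fell into 31 bands, of which 11 held at least 2 measured genes and together 40 of them. In 5 of these 11 bands (47E, 49A, 62B, 65E and 78C) genes passed the threshold on both sides. Bands 72E, 76B and 97E were positive in all their measured genes and band 67F negative in all. Bands 64A and 65A each had genes past the threshold on a single side, with 1 gene not past it.

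Band 47E was the largest, with 7 measured genes, 5 of them negative and 2 positive. Besides Cpr47Eg and Cpr47Ec, the negative genes were Cpr47Ed at -1.01 ± 0.25, Cpr47Eb at -0.91 ± 0.31 and Cpr47Ef at -0.46 ± 0.27. Cpr47Ea stood on the positive side at 0.81 ± 0.20, and as deposited it missed the threshold (0.37, adjusted p = 0.0581). Cpr47Ee, at 0.27 ± 0.28 with an adjusted p of 0.0404, was a marginal call. It was not past the threshold without replicate 1, 2, 5, 6, 7 or 8 (adjusted p = 0.0678 to 0.122), and as deposited it was at -0.17.

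Band 49A had 6 measured genes and the widest range of any band, 4.63 log2 units. Cpr49Ah, Cpr49Ae and Cpr49Aa (2.46 ± 0.39) were far on the positive side, each on all 8 arrays. Cpr49Ac was at 0.52 ± 0.45, and at 0.08 as deposited (adjusted p = 0.629). On the negative side were Cpr49Af at -0.72 ± 0.41 and Cpr49Ad at -0.45 ± 0.34.

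Band 64A held Cpr64Ac, Cpr64Aa at 2.95 ± 0.28 and Cpr64Ab at 0.67 ± 0.30, all on the positive side, although the values as deposited left Cpr64Ab uncalled (0.24, adjusted p = 0.130). The remaining gene of that band, Cpr64Ad, averaged -0.02 ± 0.99. That SD lay at percentile 99.8 of all genes, so the mean says little about any single array.

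Band 72E lay far on the positive side throughout: besides Cpr72Ea, Cpr72Eb was at 2.93 ± 0.70 and Cpr72Ec at 2.91 ± 0.59. The 4 genes of band 76B were also all positive, in a graded way, with Cpr76Bc at 3.50, Cpr76Bd at 2.05 ± 0.49, Cpr76Bb at 1.37 ± 0.52 and Cpr76Ba at 0.98 ± 0.58. In band 97E, Cpr97Ea at 2.93 ± 0.32 accompanied Cpr97Eb.

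Band 67F was the counterpart on the negative side, where Cpr67Fb at -0.91 ± 0.34 accompanied the pair Cpr67Fa1 and Cpr67Fa2. Band 62B went from negative to positive with the letter, Cpr62Ba at -0.42 ± 0.38, Cpr62Bb at 1.10 ± 0.38 and Cpr62Bc at 2.15 ± 0.30. Band 65E likewise had Cpr65Ea at -1.57, Cpr65Eb near 0 at 0.05 ± 0.27 and Cpr65Ec at 2.43 ± 0.41. In band 78C, Cpr78Cc stood at 0.97 ± 0.55 against Cpr78Ca at -0.78 ± 0.37 and Cpr78Cb at -0.33 ± 0.26. Of band 65A, where 5 further RefSeq genes had no spot here, Cpr65Az was at -0.41 ± 0.24 and Cpr65Av at 0.03 ± 0.15.

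**Figure D3:**
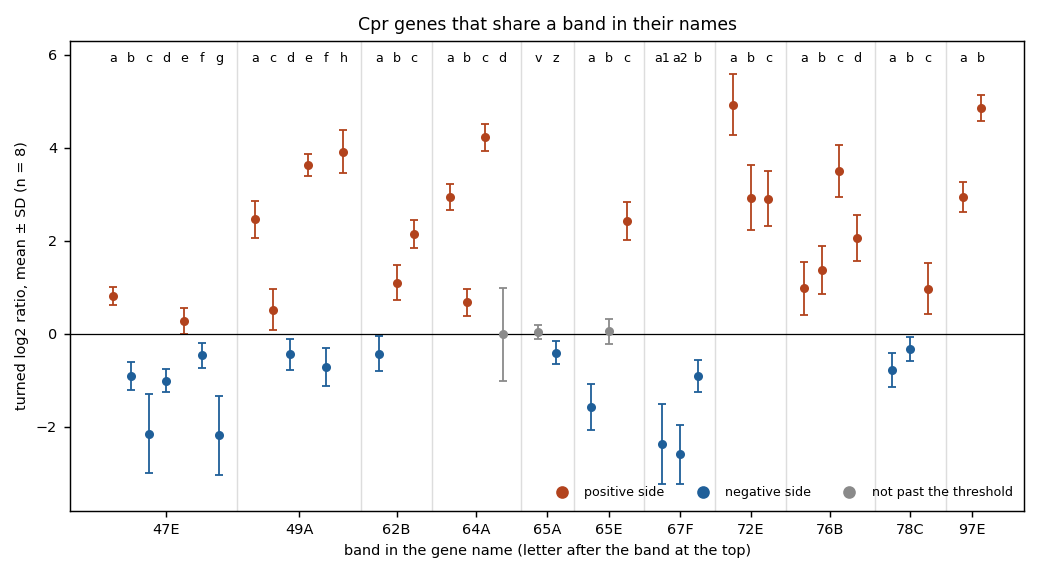
Mean turned log2 ratio (vertical axis, bars are SD, n = 8 arrays) of the 40 Cpr genes whose name shares a band with another measured gene, grouped by band (horizontal axis) with the last letters of the symbol at the top. Bands 72E, 76B and 97E lie above 0 in all genes, band 67F below 0 in all, and bands 47E, 49A, 62B, 65E and 78C hold genes on both sides.

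Genes that lie next to each other were compared directly. In RefSeq gene order, 22 pairs of measured Cpr genes have no other protein-coding gene between them. Of these pairs, 13 had both genes on the same side, 6 had them on opposite sides and 3 included a gene not past the threshold. The higher minus the lower gene of a pair had a median difference of 1.57 log2 units, and 16 pairs differed by at least 2-fold. In an exact two-sided test over the 256 sign changes of the 8 arrays, adjusted over the 22 pairs, 19 pairs differed (adjusted p from 0.0101 to 0.0362). The smallest p this test allows is 0.00781 before adjustment, and the test was chosen after values were seen. Over all genes, 57.0% were past the limma threshold on these arrays. No count over pairs of other genes is given here. The pair counts therefore do not set Cpr neighbours apart from other pairs of genes.

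The widest gap between neighbours was that of Cpr49Ae over Cpr49Af, 4.35 ± 0.43, from 3.74 on the lowest array to 4.96 on the highest. Cpr64Ac exceeded Cpr64Ad by 4.24 ± 0.81 and Cpr64Ab by 3.55 ± 0.23, each on 8 of 8 arrays. In band 47E, Cpr47Ea exceeded Cpr47Eb by 1.72 ± 0.35 and Cpr47Ee exceeded Cpr47Ed by 1.28 ± 0.28, each again on 8 of 8 arrays.

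The 3 pairs not past 0.05 by that test were Cpr72Eb and Cpr72Ec (0.02 ± 0.42, adjusted exact p = 0.867), Cpr67Fa1 and Cpr67Fa2 (0.21 ± 0.39, adjusted exact p = 0.180) and Cpr76Bb and Cpr76Ba (0.39 ± 0.51, adjusted exact p = 0.0773). Per array, Cpr72Eb minus Cpr72Ec ran from -0.66 to 0.68, Cpr67Fa1 minus Cpr67Fa2 from -0.34 to 0.88 and Cpr76Bb minus Cpr76Ba from -0.31 to 1.21.

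The 20 genes alone in their band were positive in 12 cases, negative in 5 and not past the threshold in 3. Cpr92F reached 3.47 ± 0.17, the smallest SD among the 34 positive genes, with values from 3.25 to 3.74. Cpr30B was at 3.39 ± 0.54, Cpr100A at 3.23 ± 0.31 and Cpr56F at 2.41 ± 0.52. Those 4 were positive on every array.

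Cpr66Cb and Cpr66D followed at 1.97 ± 0.51 and 1.96 ± 0.40, then Cpr78E at 1.75 ± 0.46, Cpr92A at 1.20 ± 0.45 and Cpr50Ca at 1.12 ± 0.22. Smaller positive means were those of Cpr51A (0.65 ± 0.60), Cpr73D (0.40 ± 0.44) and Cpr12A (0.35 ± 0.33). Cpr51A, the dimmest gene of the family at brightness percentile 0.469 of all genes, missed the threshold as deposited (0.21, adjusted p = 0.262). Cpr73D was not past it centred on all spots (0.26, adjusted p = 0.171), and Cpr12A was not past it centred on all spots or without replicate 1, 3 or 6 (adjusted p = 0.0542 to 0.0657 for these replicates).

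Of the negative genes alone in their band, Cpr11A and Cpr67B (-1.18 ± 0.42) differed by at least 2-fold and Cpr11B was at -0.77 ± 0.32. Cpr23B (-0.39 ± 0.47) and Cpr35B (-0.36 ± 0.37) were marginal. Cpr23B was not past the threshold without replicate 2, 3, 6 or 8 (adjusted p = 0.0550 to 0.101), and Cpr35B not without replicate 1, 3, 4 or 5 (0.0596 to 0.0618). By chromosome arm, 5 of 5 Cpr genes on 3R were positive, against 29.3% of all genes of that arm. On 3L, 18 of 30 were positive, against 27.7%, and 9 negative, close to the 29.8% of all genes there. On 2R, 9 of 17 were positive, against 36.6%, and 7 negative, against 21.5%. Arms 2L and X each held 4 Cpr genes, 1 positive and 2 negative, against 23.2% and 35.9% of all genes on 2L and 28.2% and 21.1% on X.

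The 6 genes not past the threshold were of unlike kinds. Cpr65Av was flat, between -0.21 and 0.21 on the 8 arrays, and bright, at brightness percentile 96.4 of all genes. It was nevertheless called negative after a loess curve against brightness (-0.25, adjusted p = 0.0294) and as deposited (-0.41, adjusted p = 0.0176). Cpr64Ad instead was far from 0 on most arrays but on either side. It was at -0.53, 0.54, 0.40 and 0.97 on the arrays with larvae in channel 1 (replicates 1, 3, 6 and 8) and at -0.88, -1.12, -0.99 and 1.48 on those with adults in channel 1 (replicates 2, 4, 5 and 7). As deposited it was called negative (-0.45, adjusted p = 0.0496).

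Cpr31A likewise ran from -0.46 to 1.19 (mean 0.30 ± 0.64) and Cpr5C from -0.32 to 0.84 (mean 0.19 ± 0.45). Both, like Cpr64Ad, were positive on replicates 3, 6, 7 and 8 and negative on replicates 2, 4 and 5. On replicate 1 Cpr31A and Cpr5C were positive as well (0.11 and 0.14), where Cpr64Ad was at -0.53. Cpr57A, at 0.33 ± 0.44 (adjusted p = 0.0642), passed without replicate 2 (adjusted p = 0.0392) or 4 (0.0464), and under 3 other alternatives, quantile normalization (0.0496), a loess curve against brightness (0.0401) and array weights (0.00594).

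The last of them, Cpr65Eb, was near 0 only on average over its spots. Of its 2 spots one averaged 0.53 ± 0.38 and the other -0.42 ± 0.49, and both passed the threshold in the limma fit of named spots (adjusted p = 0.00393 and 0.0144). The gene was called negative as deposited (-0.38, adjusted p = 0.0207) and positive by its spot of smallest residual SD (0.53, adjusted p = 0.00372). In all, 10 Cpr genes had more than 1 spot. The spots of the other 9 were on the same side, but not at the same ratio: the median gap between the highest and lowest spot of a gene was 0.77 for the 10 Cpr genes and 0.31 for all 1231 genes with several spots. Cpr64Aa had spots at 3.69 and 2.21, Cpr50Ca at 1.82 and 0.42, and Cpr66D at 2.28, 2.26 and 1.34. Cpr92A (1.32 and 1.07) and Cpr100A (3.38 and 3.09) had the closest spots. Some differences between neighbouring genes, measured with different spots, are thus no wider than those between spots of the same gene.

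The spread between arrays was wider in the Cpr genes than in most genes, with a median SD of 0.41 against 0.30 for all genes. Over all genes called on a side, the median SD was 0.43 for the 34 positive and 0.38 for the 20 negative Cpr genes. Among those with at least a 2-fold difference the order was the other way: the SD ran from 0.17 to 0.70 on the positive side (25 genes, median 0.41) and from 0.25 to 0.86 on the negative side (8 genes, median 0.59). The 8 negative genes came nearest to 0 on replicate 7 or 8 in 7 cases. Their median was -1.11 on replicate 7 and -1.23 on replicate 8, against -2.59 on replicate 4 and -2.40 on replicate 5. The 25 positive genes of at least 2-fold had medians of 2.74 on replicate 7 and 2.63 on replicate 8, against 2.87 on replicate 4 and 2.93 on replicate 5. Over all 20 negative genes the pattern was another one, with medians of -0.93 on replicate 7 and -0.72 on replicate 8 but -0.63 on replicates 1 and 2, and 5 genes each came nearest to 0 on replicates 1, 7 and 8. The medians of all 34 positive genes ran from 1.76 on replicates 1 and 2 to 2.75 on replicate 3.

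Single genes moved between arrays on both sides. Cpr67Fa1 was at -1.27 on replicate 7 and -3.69 on replicate 5, and Cpr47Ec at -0.23 on replicate 7 and -2.97 on replicate 4. On the positive side, Cpr78E was at 2.72 on replicate 7 and 1.57 on replicate 4, and Cpr78Cc at 2.07 and 0.49 on these arrays, while Cpr92F, the positive gene of smallest SD, was at 3.37 and 3.31. Over all genes the interquartile range of the ratios was 1.25 on replicate 7 and 0.40 to 0.95 on the others. The part of array quality or brightness in these shifts was not tested.

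**Figure D4:**
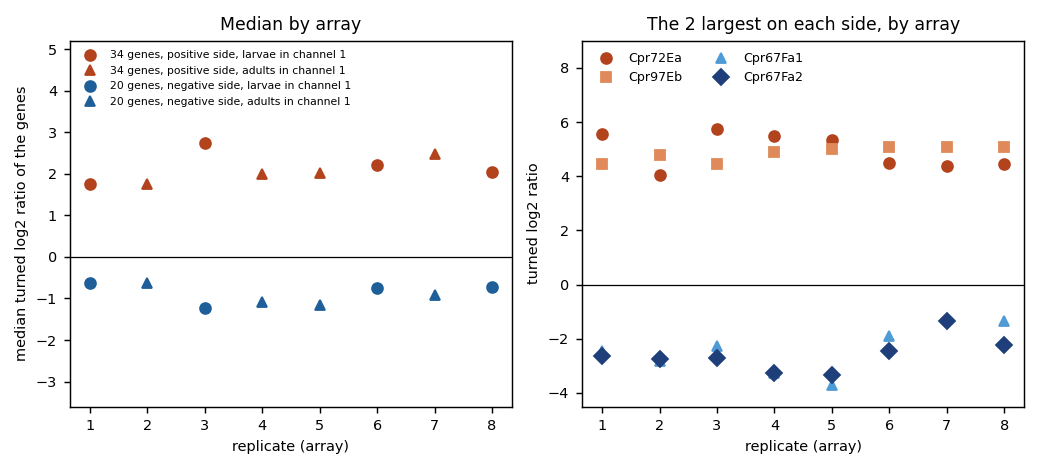
Left, median turned log2 ratio (vertical axis) of the 34 positive Cpr genes and of the 20 negative Cpr genes, on each replicate (horizontal axis), with circles for arrays with larvae in channel 1 and triangles for arrays with adults in channel 1. Right, the turned log2 ratios of the 2 genes of largest mean on each side, where Cpr72Ea and Cpr97Eb lie between 4.04 and 5.74 and Cpr67Fa1 and Cpr67Fa2 between -3.69 and -1.27.

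Dye orientation was a column of the limma fit. In it, 0 of 60 Cpr genes and 0% of all genes were past the threshold, with 2 Cpr genes and 481 of all genes at an unadjusted p below 0.05. Among the Cpr genes, the coefficient of largest size was 0.39 for Cpr47Eg, below the largest over all genes (0.53). Cpr47Eg averaged -1.79 over the arrays with larvae in channel 1 and -2.57 over those with adults in channel 1. With array weights, which gave replicate 5 a weight of 7.85 and replicate 7 a weight of 0.146, 12 Cpr genes (20%) and 11.0% of all genes were past the threshold in that column.

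Other cuticle genes were on both sides too. Of 15 measured genes named Lcp, Ccp84A, Edg, Pcp or Acp, many of which also hold the Rebers and Riddiford consensus, the positive and the negative side had 6 each (40%, against 29.2% and 27.8% of all genes) and 3 missed the threshold; their median ratio was 0.01. Edg78E, an ecdysone-dependent pupal cuticle gene, was at 3.07 ± 0.29. Of the genes named Lcp, for larval cuticle protein, Lcp65Ad was at 2.59 ± 0.44 and Lcp9 at -2.75 ± 0.68. Tweedle proteins, a cuticle family without that consensus, were mostly negative: 14 of 20 genes (70%) were called there, against 27.8% of all genes, and 2 (10%) as positive, and the median ratio was -0.85. Without dim genes, which leaves fewer of them in the fit, 8 were negative. TwdlT at 2.79 ± 0.62 stood against TwdlJ at -2.52 ± 0.74 and TwdlM at -2.49 ± 0.91. The Cpr genes, with 34 of 60 positive and a median of 0.58, thus had their median on the other side of 0 from the Tweedle genes, a difference between lists that was not tested.

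Genes of chitin synthesis and modification were called as positive in 11 of 18 cases (61.1%, against 29.2% of all genes) and as negative in 5, the same 27.8% as over all genes, around a median ratio of 0.55. The chitin synthase gene Chs2 was not past the threshold (-0.02 ± 0.30). Among the 5 negative genes were mmy at -0.26 ± 0.27 and knk at -0.79 ± 0.38. Without dim genes, which leaves fewer of the listed genes in the fit, 3 were negative. The chitinase genes Cht5 and Cht10, which digest chitin, were at 3.21 ± 0.56 and 1.88 ± 0.28, and Cda9, a chitin deacetylase gene, at -1.56 ± 0.52. Of 8 tanning genes, whose enzymes supply and oxidise the catecholamines that harden and colour cuticle, 5 were positive (62.5%) and 1 was negative (12.5%). Over all genes these shares were 29.2% and 27.8%. The median ratio of the tanning genes was 0.45, and 3 of them were positive as deposited. Among the 8, ple (tyrosine hydroxylase) was at 1.88 ± 0.33, y (yellow) at 1.11 ± 0.25 and stw (laccase) at 0.85 ± 0.33.

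Of 12 listed regulators, mostly of the ecdysone response but including grh and dsf, 10 were positive (83.3%) and 0 negative. Over all genes these shares were 29.2% and 27.8%. The median ratio of the 12 was 0.39 and none of them reached 2-fold. Their positive count moved with the centring: 2 were positive as deposited and 4 centred on all spots, with 1 negative in each. Of all 10658 genes, 1040 were positive as deposited and 2059 centred on all spots. The positive count of the regulators was 6 with the spot of smallest residual SD. It was also 6 without dim genes, which leaves fewer regulators in the fit. Taken out as dim were EcR, Hr3, usp and grh, all positive in the main fit, and dsf, not past the threshold there. EcR, the ecdysone receptor gene, was at 0.94 ± 0.33, Eip93F at 0.84 ± 0.27 and Hr78 at 0.56 ± 0.20.

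Markers of the stages stood as follows on the same scale. Adult flight muscle genes (Act88F, fln, TpnC4 and TpnC41C) were positive in 4 of 4 cases, from 1.64 to 3.87, the adult eye genes chp and trp at 1.33 and 1.06, and the pupal cuticle genes Pcp, Edg78E and Edg84A in 3 of 3 cases, from 2.04 to 3.07. These pupal genes are also in the list of Lcp and related genes. Of the yolk protein genes of adult females, Yp1 and Yp2 were positive at 1.17 and 0.75 and Yp3 was not past the threshold. Of the testis and sperm genes, Mst98Cb, Mst77F and dj were positive at 3.54, 2.96 and 1.66, and aly and can negative at -0.47 and -0.39. The larval salivary glue genes Sgs1 and Sgs5 were at -2.38 and -1.45 and Sgs4 at 0.11, not past the threshold, while of the fat body genes Fbp1 was at 4.30 and Fbp2, not past the threshold, at -0.35. Their part in the placing of the Cpr genes was not tested, and they do not settle the side of either stage here.

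Across the 8 arrays, the 3 genes whose ratios correlated most with those of Cpr72Ea, Cpr97Eb, Cpr67Fa2 or Cpr67Fa1 included 0 Cpr genes in each case, which says nothing of the family, since 60 of 10658 genes are Cpr genes. Pearson's r was 0.96 to 0.97 for Cpr72Ea, 0.93 to 0.99 for Cpr97Eb, 0.98 to 0.99 for Cpr67Fa2 and 0.99 for Cpr67Fa1. The points share arrays and RNA portions, so these values describe technical covariation between arrays and carry no test.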

How the data were processed

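The authors deposited 1 log2 ratio of the 2 channels per spot and array, for 20000 spots on 8 arrays. Spot version 2.0 quantified the scans, per the labels. No source used here names the numerator, the background handling or the spot filters. The log2 base was found from the values: every one equals log2 of a quotient of integers (at most 58096; relative tolerance 1e-13), and the mean log2 of these numbers served as brightness, a lower bound. As deposited, arrays of opposite orientation correlated at -0.81 to -0.51 and arrays of the same orientation at 0.39 to 0.89 over spots, so the sign was turned. Array medians as deposited ran from -0.70 to 0.51.

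Spots paired with 1 gene (12246, with 86 paired with several genes and 7668 unnamed here) were centred per array on their median and averaged per gene. A single fit of all 10658 genes with a stage and a dye column used limma 3.58.1 in R 4.3.3 (lmFit, eBayes, Benjamini-Hochberg), with 6 residual degrees of freedom. It was checked on simulated data. Figures used Python 3.11.15 and matplotlib 3.10.9. All 60 Cpr genes matched the RefSeq table of Release 6, used for names, arms and gene order only. Named genes are, by rule, the 6 largest on each side, all genes sharing a band and the genes not past the threshold. By the same rule they include the 4 single-band genes and the 3 genes of each other list with the largest absolute ratio. The remaining single-band genes and the genes beyond 3 a list were added after their values were seen, as was the exact test between neighbours. The members and lists were chosen with earlier results of these data known. Background levels were not used here; precision is limited by the number of arrays. Alternatives were other centrings and normalizations, array weights, no dye column, a single spot per gene, no dim genes, and each array left out.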

Additional observations from a re-analysis of the deposited data

Results flagged for a closer look

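Within each orientation (4 arrays), an array that stood apart from the other 3 was looked for in every Cpr gene by Dixon's test, which chance meets in about 1 of 20 groups. It was met in 14 of 120 groups, 8 times by replicate 7, 5 times by replicate 3 and 1 time by replicate 8. The same test was met in 9.80% of the groups of all genes and in 11.7% of those of the Cpr genes, so the nominal 1 in 20 is not the level on these arrays. Replicate 7 met it in 13.3% of Cpr genes and 13.2% of all genes, replicate 3 in 8.33% and 2.10%, and replicate 8 in 1.67% and 0.647%; the interquartile range of all genes was widest on replicate 7 (1.25). Replicate 7, with adults in channel 1, was above the other arrays of its orientation for Cpr66D (2.74, others 1.71 to 1.88), Cpr78E (2.72, others 1.57 to 1.70), Cpr78Cc (2.07, others 0.48 to 0.64), Cpr64Ab (1.11, others 0.34 to 0.41), Cpr64Ad (1.48, others -1.12 to -0.88), Cpr31A (0.84, others -0.46 to -0.32) and Cpr5C (0.84, others -0.32 to -0.17). For Cpr62Ba replicate 7 was below them (-1.19, others -0.22 to -0.08). Replicate 3, with larvae in channel 1, was above the other arrays of its orientation for Cpr76Bc (4.76, others 3.08 to 3.32), Cpr30B (4.50, others 2.99 to 3.20), Cpr76Bd (3.18, others 1.78 to 1.94) and Cpr66Cb (3.00, others 1.62 to 1.73), and below them for Cpr47Ed (-1.32, others -0.75 to -0.74). Replicate 8 was below them for Cpr64Aa (2.45, others 2.99 to 3.09). No cause was tested.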

How the results depend on the processing

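Over 18 alternatives the Cpr genes past the threshold numbered 27 to 35 on the positive side and 15 to 23 on the negative. The 15 came without dim genes, where 47 Cpr genes were left in the fit and all 47 kept direction and call. In all, 45 of the 54 called genes kept direction and call under each alternative that retained them. Without any single replicate the counts were 32 to 35 and 18 to 20, and the median ratio was 0.48 to 0.65. That median was 0.15 as deposited and 0.97 after 13 Cpr genes among the dimmest 25% of genes were left out. Counts of all genes moved to 2059 positive centred on all spots, and to 1040 positive and 6059 negative as deposited. With array weights 12 Cpr genes passed in the dye column, and 0 under each other alternative with that column. As deposited the sign changed for Cpr12A (-0.086), Cpr31A (-0.13), Cpr47Ee (-0.17), Cpr57A (-0.11), Cpr5C (-0.25), Cpr65Av (-0.41), Cpr65Eb (-0.38) and Cpr73D (-0.034). It also changed for Cpr65Av and Cpr65Eb centred on all spots (-0.11 and -0.085), after a loess curve against brightness (-0.25 and -0.17) and with array weights (-0.027 and -0.071). Cpr64Ad ran from -0.32 to 0.13 and Cpr65Av from -0.0097 to 0.059 without single replicates. The median of band 78C was 0.091 without the dim gene Cpr78Cb. Apart from fewer genes in the last case, the cause was not tested. Arrays of opposite orientation share no replicate numbers, so they were not paired with each other. The planned split by protein motif was not run, as no protein sequences were used here.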
